A study of Mus musculus with 6 samples.

Results

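The neuromuscular junction is the synapse at which a motor nerve drives a skeletal muscle fibre. Acetylcholine released by the nerve opens a receptor built of alpha, beta and delta subunits with an epsilon subunit in adult muscle or a gamma subunit in fetal and denervated muscle. Agrin from the nerve binds Lrp4, which activates the kinase MuSK, and MuSK acts through the adaptor Dok7 and the scaffold rapsyn to hold the receptors in a dense cluster. The genes described here were the 10 genes of this apparatus, namely the receptor subunit genes Chrna1, Chrnb1, Chrnd, Chrne and Chrng, and Musk, Rapsn, Dok7, Agrn and Lrp4. They were taken from the table of all genes by Entrez identifier, and each had 1 probe set among the 16492 gene probe sets.

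RNA came from quadriceps, a thigh muscle, of 3 mice heterozygous for a nebulin knock-out (nebulin +/-) and 3 wild-type mice (nebulin +/+), each mouse on an Affymetrix array of its own. Nebulin is the giant protein that lines the thin filament of the sarcomere. The labels give no strain, age, sex or further treatment, and none that limits the knock-out to a cell type. The comparison of the genotypes asks whether the transcripts of the junction differ when 1 nebulin allele is lost.

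The deposited log2 values of the 6 arrays had the same distribution, which ran from 5.56 to 14.81 around a median of 7.23. The Neb probe set measured 12.08, 11.73 and 11.94 in heterozygous mice 1 to 3 and 12.17, 12.09 and 12.16 in wild-type mice 1 to 3, and the groups did not overlap. Its difference of -0.22 ± 0.079 (SE) did not pass the test (limma, adjusted p = 0.161), and without heterozygous mouse 1 it was -0.31 and passed (adjusted p = 0.0399, over all alternatives 0.0399 to 0.334). Where its probes lie relative to the deleted part is not known here, and the labels are not checked by it. All 10 adult skeletal muscle markers listed, among them Ckm and Acta1, were tested and none passed (limma), against 3.11% of all probe sets. Of the 10, 0 had an unadjusted p under 0.05, against 20.5% of all. The smallest p were those of the fast myosin genes Myh4 (-0.26, adjusted p = 0.281) and Myh1 (-0.18, adjusted p = 0.291). The mean of the 10 markers lay between 13.84 and 13.98 on every array. Acta1 stood at 14.81, the top of the scale, on every array, and Ckm near it at 14.64 to 14.66. Because all arrays had the same distribution, these 2 genes could hardly differ, and nothing is read from them. On the second principal component, with 16.1% of the variance, heterozygous mouse 1 stood apart at 7.59 while the other arrays lay between -3.78 and 2.40. Where leaving out this array changed the call of a gene named here, both values are given, except for genes named only for their profile. In RNA of whole muscle, fewer junctional nuclei and less transcript per nucleus cannot be told apart.

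No receptor or clustering gene passed the test between the genotypes, and the largest difference was in Musk, at -0.29 on the log2 scale. Of the 10 genes, 9 were above the limit on low values (a mean over all arrays of 6.74) and were tested, and Chrng was below it. None of these 9 passed an adjusted p of 0.05 (limma, Benjamini-Hochberg over 11544 probe sets), against 3.11% of all probe sets tested. With the replicate number as a block, none of the 9 passed either, against 4.95% of all. An unadjusted limma p under 0.05 was reached by 3 of the 9 (Musk, Lrp4 and Chrnb1), against 20.5% of all. The groups did not overlap at 3 of the 9 (Musk, Lrp4 and Chrnd), against 26.3% of all. The median log2 difference of the 9 was -0.014, with 4 positive and 5 negative, and that of all tested probe sets was -0.0013. The median size of the difference, without its sign, was 0.045 for the 9 and 0.054 for all.

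**Figure D1:**
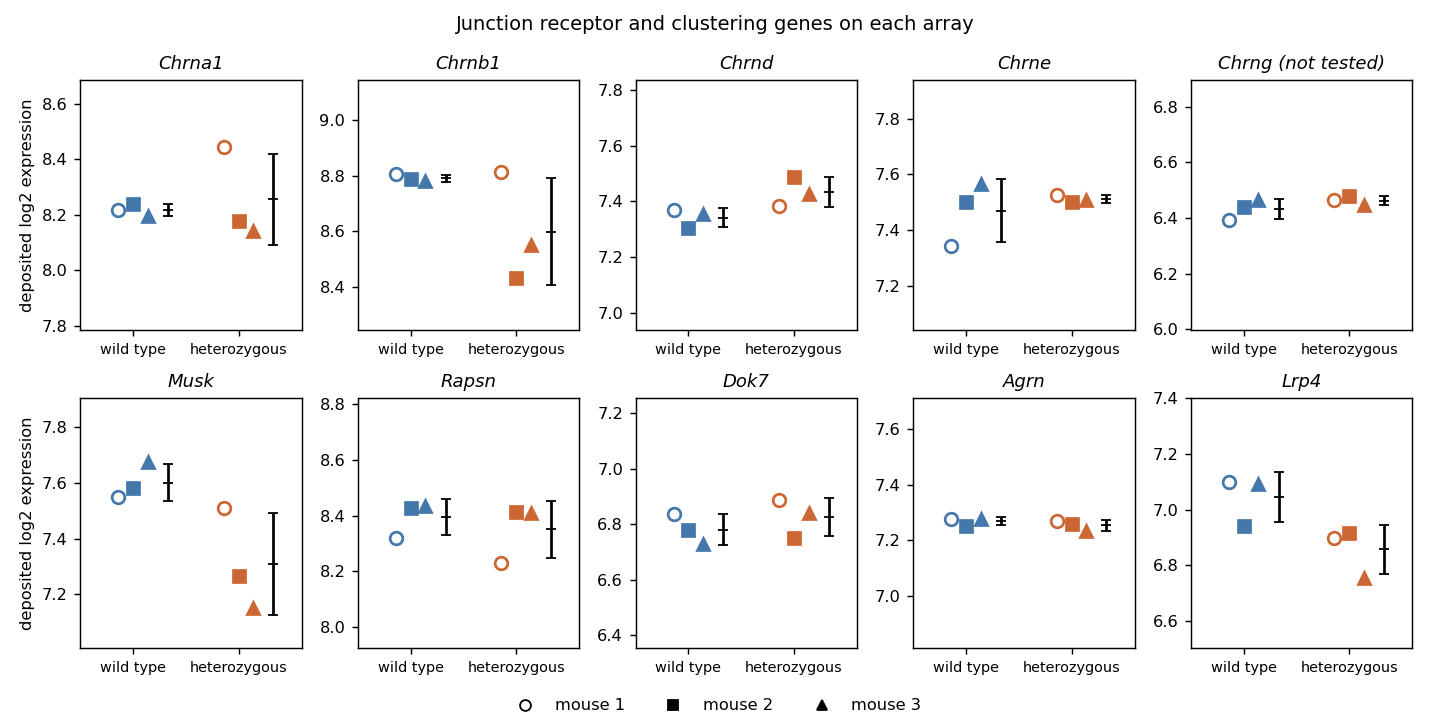
Deposited log2 expression of each of the 10 genes on the arrays of 3 wild-type (blue) and 3 heterozygous (orange) mice. Symbols mark the mouse number, bars show the mean and SD of 3 mice, and every panel spans the same width on the log2 scale. Heterozygous mouse 1 (open circle) lies near the wild-type mice in Chrnb1 and Musk and above all other mice in Chrna1.

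Musk encodes the receptor tyrosine kinase that organises the postsynaptic membrane. It measured 7.51, 7.27 and 7.15 in heterozygous mice 1 to 3 and 7.55, 7.58 and 7.68 in wild-type mice 1 to 3. Every heterozygous mouse was below every wild-type mouse, and heterozygous mouse 1 was nearest to them. The means were 7.31 ± 0.18 and 7.60 ± 0.066 (SD, n = 3 each). The log2 difference was -0.29 ± 0.084 (SE), a change of -18.4% with a 95% confidence interval of -28.5% to -6.78%. It missed the threshold over all probe sets (limma, adjusted p = 0.0997), and a two-sided exact permutation test gave p = 0.1, the lowest value open to groups of 3 and 3.

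Chrnb1 encodes the beta subunit, which is present in the fetal and the adult receptor. It measured 8.81, 8.43 and 8.55 in heterozygous mice 1 to 3 and 8.80, 8.79 and 8.78 in wild-type mice 1 to 3. The wild-type mice agreed closely, heterozygous mouse 1 was marginally above them, and heterozygous mice 2 and 3 were below, so the groups overlapped. The log2 difference was -0.19 ± 0.084 (SE; limma, adjusted p = 0.243; exact permutation p = 0.4).

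Whether Musk and Chrnb1 passed depended on heterozygous mouse 1. Without it, the log2 difference of Musk was -0.39 ± 0.056 (SE), a change of -23.8% (95% CI -30.3% to -16.7%; limma, adjusted p = 0.0121). That of Chrnb1 was -0.30 ± 0.047, a change of -18.7% (95% CI -24.6% to -12.3%; adjusted p = 0.0188). In this comparison of 2 heterozygous with 3 wild-type mice, 2 of the 9 genes were thus lower, against 2.34% of all probe sets that were called lower. In the other 12 alternative fits run for each gene neither passed, and over all 13 the adjusted p ran from 0.0121 to 0.242 for Musk and from 0.0188 to 0.516 for Chrnb1. The sign was negative in all 13 fits for both genes. Leaving this mouse out was 1 of 6 fits that each left out a mouse, and it is described apart because its effect was seen.

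The 250 bases upstream of the annotated start are shown for Musk and Chrnb1, which passed without heterozygous mouse 1, and for comparison for Chrna1 and Chrne, whose differences were nearer to 0. The sequences are from RefSeq, build GRCm38.p6, read 5′ to 3′ on the strand of the gene, and 7 of the 10 genes had such a window. Capitals mark the E-box, CANNTG, the core recognised by MyoD-family factors such as MyoD and myogenin, and the N-box, CCGGAA, known as a target of Ets factors in synapse-specific genes. Both were searched on both strands, and no N-box overlapped an E-box in the windows shown.
Musk (chr4:58285712-58285961, + strand): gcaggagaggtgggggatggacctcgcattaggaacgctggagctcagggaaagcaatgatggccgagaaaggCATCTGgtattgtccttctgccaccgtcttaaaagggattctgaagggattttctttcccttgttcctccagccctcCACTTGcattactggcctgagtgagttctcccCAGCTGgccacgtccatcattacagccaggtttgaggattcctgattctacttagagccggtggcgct
Chrnb1 (chr11:69795938-69796187, - strand): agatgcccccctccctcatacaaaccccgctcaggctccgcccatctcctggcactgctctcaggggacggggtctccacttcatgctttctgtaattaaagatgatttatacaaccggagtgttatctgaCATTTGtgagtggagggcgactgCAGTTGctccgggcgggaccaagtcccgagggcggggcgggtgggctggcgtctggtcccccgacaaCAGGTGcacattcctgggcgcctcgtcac
Chrna1 (chr2:73580339-73580588, - strand): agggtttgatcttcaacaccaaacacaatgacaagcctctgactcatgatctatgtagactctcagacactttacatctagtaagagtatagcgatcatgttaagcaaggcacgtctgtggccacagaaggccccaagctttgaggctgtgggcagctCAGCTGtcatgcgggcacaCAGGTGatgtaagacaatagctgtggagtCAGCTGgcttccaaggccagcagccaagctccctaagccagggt
Chrne (chr11:70619195-70619444, - strand): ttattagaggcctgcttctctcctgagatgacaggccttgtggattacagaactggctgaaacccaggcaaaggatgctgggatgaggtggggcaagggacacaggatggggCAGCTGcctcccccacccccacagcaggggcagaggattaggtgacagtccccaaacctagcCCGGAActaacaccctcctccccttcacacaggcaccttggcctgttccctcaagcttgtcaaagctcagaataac
The windows of Musk, Chrnb1, Chrna1 and Chrng held 3 E-boxes each, as 12.2% of all 32851 windows of this length held 3 or more. Those of Musk began 177, 100 and 68 bases before the start, and those of Chrnb1 119, 96 and 29. In Chrna1 they began 92, 73 and 44 bases before it. Chrne held 1 E-box, 138 bases before the start, and 1 N-box, 76 bases before it. An E-box was present in 66.2% of all windows and an N-box in 12.03%. The windows of Agrn and Dok7, not shown, held 1 or 0 E-boxes. The part of these boxes in the differences between the genotypes was not tested.

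Chrna1 encodes the alpha subunit, which carries the principal face of the acetylcholine binding sites. It measured 8.44, 8.18 and 8.14 in heterozygous mice 1 to 3 and 8.22, 8.24 and 8.20 in wild-type mice 1 to 3. Heterozygous mouse 1 was the highest of the 6 and the other heterozygous mice the lowest. The log2 difference was 0.039 ± 0.073 (SE; limma, adjusted p = 0.811), and without heterozygous mouse 1 it was -0.055 ± 0.041 (adjusted p = 0.467, over all alternatives 0.467 to 0.982). The 95% confidence interval with all mice ran from -8.56% to 15.4%.

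Chrnd, the delta subunit gene, measured 7.38, 7.49 and 7.43 in heterozygous mice 1 to 3 and 7.37, 7.30 and 7.35 in wild-type mice 1 to 3. Every heterozygous mouse was above every wild-type mouse, by a small margin in heterozygous mouse 1. The log2 difference was 0.092 ± 0.041 (SE), a change of 6.56% (95% CI -0.18% to 13.8%), and it did not pass (limma, adjusted p = 0.254; exact permutation p = 0.1).

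Chrne and Chrng encode the adult and the fetal form of the exchangeable subunit. Chrne measured 7.53, 7.50 and 7.51 in heterozygous mice 1 to 3 and 7.34, 7.50 and 7.57 in wild-type mice 1 to 3. The heterozygous values lay within the wild-type range, and the log2 difference was 0.042 ± 0.056 (SE; limma, adjusted p = 0.718; 95% CI -5.82% to 12.5%). Without wild-type mouse 1 it was -0.021 (adjusted p = 0.851, over all alternatives 0.446 to 0.851). Chrng measured 6.46, 6.48 and 6.45 in heterozygous mice 1 to 3 and 6.39, 6.44 and 6.46 in wild-type mice 1 to 3. Its groups overlapped and it was not tested in the fit (difference of means 0.030; exact permutation p = 0.2). Within an array, Chrne minus Chrng averaged 1.05 ± 0.022 (SD, n = 3) in the heterozygous group and 1.04 ± 0.078 (SD, n = 3) in the wild-type group. The genotypes differed by 0.012 on this measure (exact two-sided permutation p = 0.8). Chrng was below the limit on low values of 6.74 on every array, so the measure may follow Chrne alone, and nothing is read from it about a switch between the subunits. Brightness also depends on the probes, and the ratio does not give the proportion of the subunits.

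Lrp4, the agrin receptor on the muscle fibre, measured 6.90, 6.92 and 6.75 in heterozygous mice 1 to 3 and 7.10, 6.94 and 7.09 in wild-type mice 1 to 3. The groups did not overlap, although heterozygous mouse 2 and wild-type mouse 2 were close. The log2 difference was -0.19 ± 0.060 (SE), a change of -12.2% (95% CI -20.2% to -3.46%; limma, adjusted p = 0.129; exact permutation p = 0.1). It was negative in all 12 alternative fits that could be made and passed in none, with adjusted p from 0.105 to 0.306. Its signal was near the limit on low values of 6.74.

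Agrn encodes agrin, the signal of the nerve, which muscle and other cells also make. It measured 7.27, 7.26 and 7.23 in heterozygous mice 1 to 3 and 7.28, 7.25 and 7.28 in wild-type mice 1 to 3. Its difference was the smallest of the 9, at -0.014 ± 0.034 on the log2 scale (SE; limma, adjusted p = 0.851; 95% CI -6.20% to 4.50%). Whether its probes separate the splice form made by nerve is not given in the sources used.

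Dok7, the adaptor that activates MuSK from inside the fibre, measured 6.89, 6.75 and 6.84 in heterozygous mice 1 to 3 and 6.84, 6.78 and 6.73 in wild-type mice 1 to 3. The groups overlapped (log2 difference 0.045 ± 0.048, SE; limma, adjusted p = 0.643; 95% CI -4.39% to 11.3%). Rapsn, whose product rapsyn links receptors to the cytoskeleton, measured 8.23, 8.41 and 8.41 in heterozygous mice 1 to 3 and 8.32, 8.43 and 8.44 in wild-type mice 1 to 3. In Rapsn the mice numbered 1 were the lowest of each genotype, and the groups overlapped. Its log2 difference was -0.044 ± 0.058 (SE; limma, adjusted p = 0.718; 95% CI -11.6% to 6.42%), and 0.016 without heterozygous mouse 1 (adjusted p = 0.882, over all alternatives 0.519 to 0.893).

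**Figure D2:**
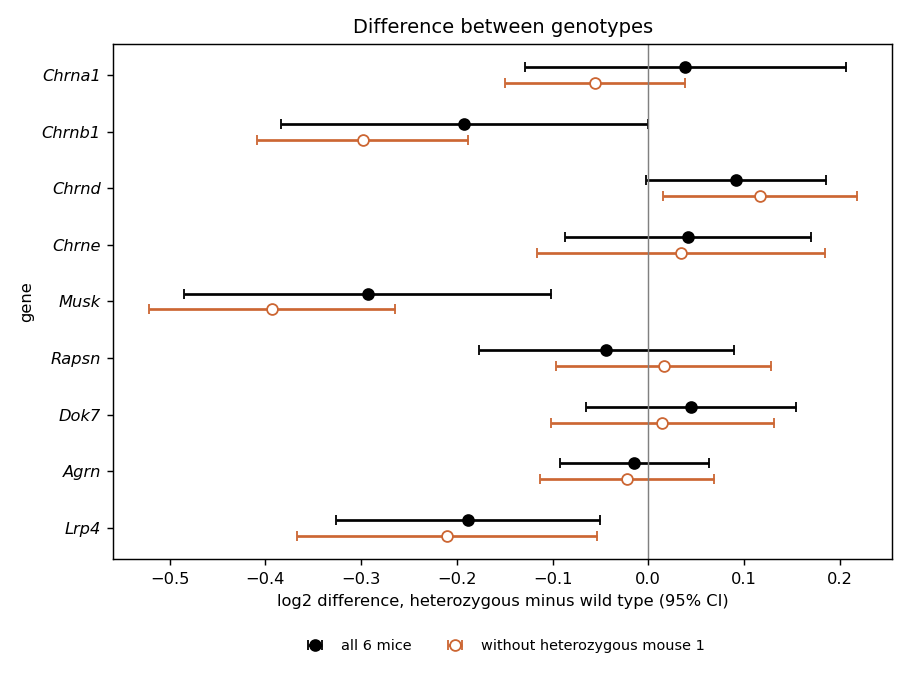
Log2 difference, heterozygous minus wild type, of the 9 tested genes with its 95% confidence interval from limma, for all 6 mice (filled) and without heterozygous mouse 1 (open). The intervals of Musk and Chrnb1 shift away from 0 without that mouse, to differences of -0.39 and -0.30, while the points of Chrna1 and Rapsn cross 0. The intervals are not adjusted for the number of genes tested.

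The profile of Musk over the arrays was set against those of all named, tested genes by the root mean square difference of log2 values after each gene was centred on its mean over the 6 arrays. The closest were Dusp6, which encodes a phosphatase of the ERK kinases, at 0.035, Smtnl2 (a smoothelin-like gene) at 0.037, Nek6 (a kinase of mitosis) at 0.052 and Il1r1 (an interleukin-1 receptor) at 0.061. Their log2 differences between genotypes were -0.28, -0.30, -0.31 and -0.26 in that order. With all mice Smtnl2 and Nek6 passed (limma, adjusted p = 0.0489 and 0.0399), and Dusp6 and Il1r1 did not (adjusted p = 0.0735 and 0.0678). Because the genes were chosen for their likeness to Musk over these same arrays, their differences and the order of their mice follow from the choice and are a description only. The closest profiles to Chrne were those of Zfp597, Ppp3r1, Arih1 and Tmcc1, at 0.020 to 0.022, likewise as a description.

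**Figure D3:**
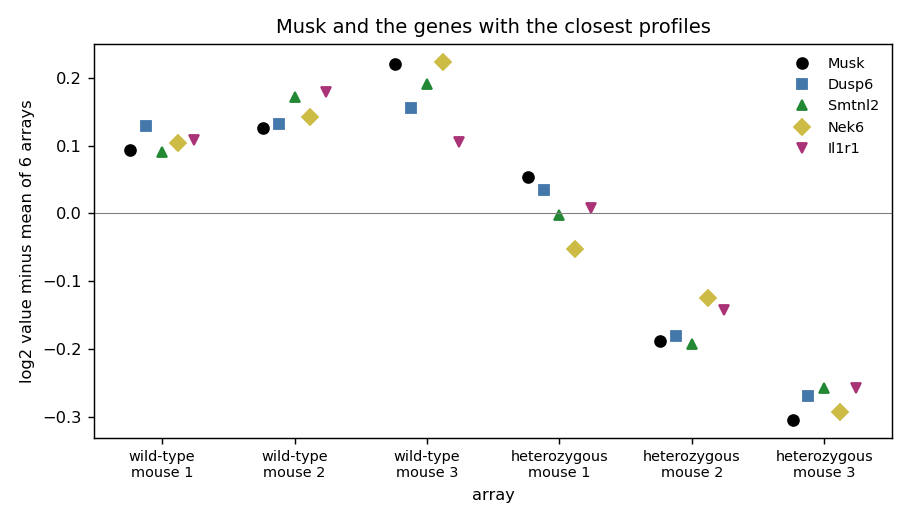
Log2 values minus the gene's mean over 6 arrays for Musk and the 4 genes with the closest profiles, by mouse. For Musk, heterozygous mice 2 and 3 are the lowest and heterozygous mouse 1 lies between them and the wild-type mice, and the other 4 genes were chosen for sharing this profile.

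Around the receptor, 69 further genes of 6 junction lists were tested, and 4 rose, none fell and 65 did not pass (limma, adjusted p). This is 5.80% called higher against 1.53% of all probe sets, and 1 to 4 passed when a mouse was left out. The lists were chosen with earlier results of these data known, so the shares are a description only. The median log2 difference of the 69 genes was 0.0072. All 4 came from the lists of transcription factors and of denervation-responsive genes, and Myog is on both. Without heterozygous mouse 1, the genes past the threshold were Myog, Hdac9, Fgfbp1 and Macf1. The difference of Macf1, a cytoskeletal linker at the junction, was then -0.24 (adjusted p = 0.0265, over its alternatives 0.0265 to 0.489), and it was -0.16 with all mice (adjusted p = 0.23).

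Of 13 genes listed as rising in denervated muscle, 3 rose and 10 did not pass, against 1.53% of all probe sets called higher. The labels name no denervated muscle, and the place of each gene on the list, Fgfbp1 included, was not tested. The median difference was 0.13, with 11 positive and 2 negative. An unadjusted limma p under 0.05 was reached by 5 of the 13, against 20.5% of all. Fgfbp1, which encodes a carrier of fibroblast growth factors, measured 8.43, 8.55 and 8.59 in heterozygous mice 1 to 3 and 7.91, 7.85 and 7.77 in wild-type mice 1 to 3. It rose 1.61-fold, with a gap between the groups larger than the range within either (log2 difference 0.68 ± 0.055, SE; limma, adjusted p = 0.0025). It ranked 3 by p among all tested probe sets and passed in each of its 13 alternative fits. Myog, the E-box factor myogenin, measured 7.59, 7.58 and 7.37 in heterozygous mice 1 to 3 and 7.01, 7.18 and 7.19 in wild-type mice 1 to 3. Its log2 value rose by 0.38 ± 0.072 (SE; limma, adjusted p = 0.0321). The cell cycle inhibitor gene Cdkn1a rose by 0.29 ± 0.056 (adjusted p = 0.0354), and without heterozygous mouse 1 its adjusted p was 0.0558. Ncam1, an adhesion molecule that spreads over denervated fibres, had a difference of 0.051 (adjusted p = 0.53), and Runx1, a transcription factor gene, of -0.030 (adjusted p = 0.699). The difference of the ubiquitin ligase gene Fbxo32 was -0.32 ± 0.12 (SE; limma, adjusted p = 0.189), and it was negative in all 13 alternative fits. Those of Trim63 and Gadd45a were 0.13 (adjusted p = 0.408) and 0.0072 (adjusted p = 0.982). Ankrd1, an ankyrin repeat gene, differed by 0.48 ± 0.17 (SE; limma, adjusted p = 0.173) and was positive in all 13 alternative fits. Embryonic myosin Myh3 differed by 0.52 ± 0.26 (adjusted p = 0.292), and with the block its adjusted p was 0.0299 (over all alternatives 0.0299 to 0.618). Chrna1 and Chrng, which rise in denervated muscle, had differences of 0.039 and 0.030 as given above, and Musk had one of -0.29.

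Of 16 genes for neuregulin receptors and transcription factors of subsynaptic genes, 2 rose (Myog and Hdac9) and 14 did not pass. Of all probe sets, 1.53% were called higher. The median difference of the 16 was 0.047. Hdac9, a class IIa deacetylase whose product represses Mef2-dependent genes, rose by 0.23 ± 0.046 (limma, adjusted p = 0.0393). Its values were 7.05, 7.14 and 7.18 in heterozygous mice 1 to 3 and 6.86, 6.86 and 6.95 in wild-type mice 1 to 3. Myod1, another E-box factor, differed by 0.35 ± 0.082 (adjusted p = 0.0612), with 0.0368 under the block and 0.0252 to 0.164 over all alternatives. Hdac5 differed by 0.23 ± 0.070 (adjusted p = 0.112), with 0.0219 under the block and 0.0219 to 0.279 over all alternatives. Myf6, an E-box factor of adult fibres, differed by 0.084 (adjusted p = 0.525). With the block 7 of the 69 genes passed, against 4.95% of all probe sets. Hdac4, which links denervation to myogenin, had a difference of 0.15 (adjusted p = 0.256) and Dach2, whose product represses Myog, of -0.18 (adjusted p = 0.347). The N-box factor subunits Gabpa and Gabpb1 had differences of 0.014 and 0.027, and the neuregulin receptor genes Erbb2 and Erbb3 of -0.0066 and 0.16, none of which passed.

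The 3 calls of Myog, Cdkn1a and Hdac9 depended on the mice. Of the 6 fits that left out a mouse, Myog passed in 2, with adjusted p from 0.0400 to 0.103, and Cdkn1a in 1, with adjusted p from 0.0257 to 0.113. Hdac9 passed in 1, with adjusted p from 0.0244 to 0.129. Fgfbp1 passed in all 6, with adjusted p from 9.14e-04 to 0.0190.

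None of the 42 genes of the other 4 lists passed (limma), against 3.11% of all probe sets. An unadjusted p under 0.05 was reached by 4 of the 42, against 20.5% of all. Among 15 signal transducers beside MuSK the median difference was 0.0013, with the phosphatase gene Ptpn11 at -0.17 (adjusted p = 0.0927) and the adaptor gene Crk at 0.11 (adjusted p = 0.253). Among 11 scaffold genes the median was -0.019, with Dtna, encoding alpha-dystrobrevin, at -0.093 (adjusted p = 0.31) and Utrn, encoding utrophin, at 0.048 (adjusted p = 0.563). Among 10 genes of the synaptic matrix the median was -0.027, with Prelp at -0.17 (adjusted p = 0.207) and Lama4 at -0.061 (adjusted p = 0.456). Ache, the acetylcholinesterase gene, had a difference of -0.050 (adjusted p = 0.567). Among 7 glycosylation and other genes mutated in congenital myasthenic syndromes the median was 0.035, with Alg2 at 0.18 (adjusted p = 0.141) and Dpagt1 at 0.046 (adjusted p = 0.536). Acetylcholine receptor genes of nerve and other tissues were mostly below the limit on low values, and of 13 named, 4 were tested. None of these 4 passed (limma), against 3.11% of all probe sets, and 0 had an unadjusted p under 0.05, against 20.5% of all. The smallest p were those of Chrnb3 (0.075, adjusted p = 0.373) and Chrna4 (0.037, adjusted p = 0.577).

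**Figure D4:**
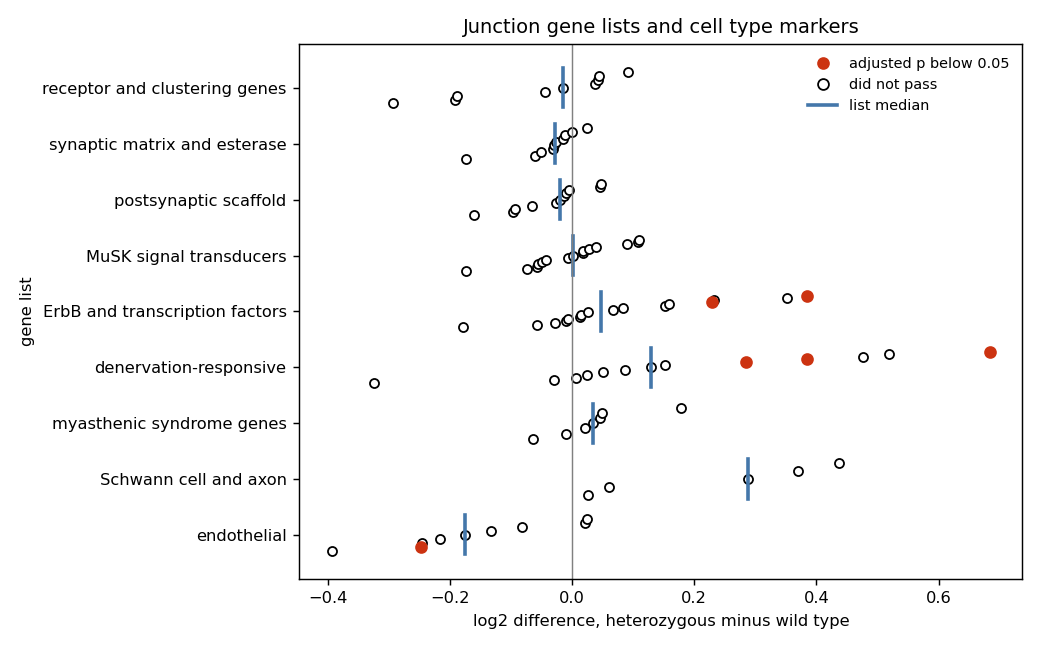
Log2 difference, heterozygous minus wild type, of each tested gene of 7 junction lists and 2 cell type marker lists, with the list median as a bar. Filled points passed an adjusted p of 0.05. They lie in the transcription factor and denervation lists, all above 0, and in the endothelial list, where Egfl7 is at -0.25.

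Slow fibre genes rose in heterozygous muscle, and few markers of other cell types passed. The mean log2 level of 7 slow fibre genes was 11.47 to 11.84 in heterozygous and 9.41 to 10.13 in wild-type mice. Of these 7, 6 rose (limma), against 1.53% of all probe sets called higher. They were the slow myosin gene Myh7, the slow troponin genes Tnnt1, Tnni1 and Tnnc1, and 2 myosin light chain genes, Myl2 and Myl3. The smallest p were those of Tnnt1 (2.37 ± 0.15, SE) and Tnni1 (2.40 ± 0.16), both at adjusted p = 0.0014. Without heterozygous mouse 1, Myl2 missed the threshold (adjusted p = 0.0503, against 0.0347 with all mice and 0.0169 to 0.111 over all alternatives). The slow calcium pump gene Atp2a2 did not pass with all mice (adjusted p = 0.0625), but did with the block (adjusted p = 0.0127, over all alternatives 0.0127 to 0.122). Under the block all 7 passed, against 4.95% of all probe sets called in either direction.

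The mean level of 9 endothelial markers was 8.13 to 8.27 in heterozygous and 8.30 to 8.44 in wild-type mice. Among them 1 passed, against 3.11% of all probe sets, and 5 of the 9 had an unadjusted limma p under 0.05, against 20.5% of all. The groups did not overlap at 4 of the 9, against 26.3% of all. The median difference of the 9 was -0.17, with 2 positive and 7 negative. The 2 positive were those of Pecam1 (0.022; limma, adjusted p = 0.863) and Esam (0.024, adjusted p = 0.828). The 1 that passed was Egfl7, which fell by 0.25 ± 0.043 on the log2 scale (SE; limma, adjusted p = 0.0271). Egfl7 passed in 1 of the 6 fits that left out a mouse (adjusted p from 0.0194 to 0.091). With the block 3 of the 9 were lower, against 4.95% of all probe sets called in either direction. The vascular growth factor receptor gene Kdr (-0.25, adjusted p = 0.0575) and the tight junction gene Cldn5 (-0.39, adjusted p = 0.0643) then reached adjusted p of 0.0174 and 0.0184. Without heterozygous mouse 1, Kdr and the angiopoietin receptor gene Tek (-0.17 with all mice, adjusted p = 0.144) passed at 0.0258 and 0.0460. Over all alternatives the adjusted p ran from 0.0174 to 0.161 for Kdr, 0.0184 to 0.178 for Cldn5 and 0.0460 to 0.341 for Tek.

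The mean level of 8 Schwann cell and axon markers was 7.39 to 7.58 in heterozygous and 7.20 to 7.37 in wild-type mice. None of the 5 tested passed (limma), against 3.11% of all probe sets. All 5 differences were positive, with a median of 0.29. The largest was that of the myelin gene Pmp22 (0.44, adjusted p = 0.248, and 0.21 without heterozygous mouse 1). An unadjusted p under 0.05 was reached by 2 of the 5, against 20.5% of all, the myelin genes Mbp (0.37, adjusted p = 0.147) and Mal (0.29, adjusted p = 0.236). The neurofilament genes Nefl and Nefm and Prph, the axonal markers, were below the limit on low values. None of the 23 tested fibroblast, leukocyte, satellite cell and smooth muscle markers passed with all mice (limma), against 3.11% of all probe sets. An unadjusted p under 0.05 was reached by 2 of the 23, against 20.5% of all. These were the collagen genes Col1a2 (0.61, adjusted p = 0.131) and Col1a1 (0.39, adjusted p = 0.157). Col1a2 passed with the block (adjusted p = 0.0475, over all alternatives 0.0475 to 0.307). The smallest p of the other lists were those of Adgre1 (-0.12) and Ptprc (-0.19) for leukocytes, Vcam1 (0.057) and Cdh15 (-0.064) for satellite cells, and Pdgfrb (-0.075) and Rgs5 (0.064) for smooth muscle, with adjusted p from 0.287 to 0.565. The part of fibre type, nerve and vessel content in the values of Musk, Lrp4, Fgfbp1 and Myog was not tested.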

How the data were processed

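Quadriceps RNA of 6 mice, 3 heterozygous and 3 wild type, was measured on 1 array each. Per the labels' protocols, extraction used Trizol followed by a Qiagen column, and biotin-labelled cRNA was made in the Affymetrix way. The deposited values are log2 expression per probe set, and each array held exactly the same set of values, as after quantile normalization. The sources used here name no software, background correction or probe build. The number of arrays limits the precision. The table holds 16556 entries, of which 64 are controls and 16492 gene probe sets, 15270 of them named through the platform annotation and RefSeq. Probe sets with a mean above the 30th percentile (6.74) were tested, 11544 in all.

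Genotypes were compared as heterozygous minus wild type with limma 3.58.1 in R 4.3.3 (lmFit, eBayes), with Benjamini-Hochberg adjustment over all tested probe sets and a threshold of 0.05. Single genes also had an exact two-sided permutation test. On simulated data of 11544 probe sets the fit recovered 80% of log2 differences of 0.3 and 100% of 2, with 5 false calls. The differences were put on probe sets drawn at random, with noise independent between arrays. The median SE of all tested probe sets was 0.045, against 0.084 for Musk and for Chrnb1, so the 80% does not hold for these 2 genes. Alternatives changed the filter, variance trend, array weights, scaling (cyclic loess, centring on muscle markers), pairing and the mice included. Mice of both genotypes share the numbers 1 to 3; deviations from the group means correlated at 0.187, 0.234 and 0.129 for numbers 1, 2 and 3. Each exceeds 0.1, the level taken to mean pairing, so a blocked fit is quoted where it changes a call of a named list gene. This pairing comes from the data and not from the labels.

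Named were all 10 genes, in each further list the genes past the threshold and the 2 with the smallest p, and the 4 closest profiles to Musk and Chrne. Other list genes were named after their values were seen. The genes and lists were chosen with earlier results of these data known. No further per-sample column was used.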

Additional observations from a re-analysis of the deposited data

How the results depend on the processing

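No receptor or clustering gene passed with all mice, without a filter, above the 50th percentile, with a variance trend, array weights, cyclic loess, centring on muscle markers or the replicate block, and scaling moved the median of all differences by 0.0020 (cyclic loess) and 0.0045 (muscle markers) on the log2 scale. Above the 50th percentile Dok7 and Lrp4 gave no value. Leaving out a mouse gave 0 to 2 calls among the genes, the 2 being Musk (-0.39) and Chrnb1 (-0.30) without heterozygous mouse 1. Some small differences changed sign in such a fit: Chrna1 to -0.055 and Rapsn to 0.016 without heterozygous mouse 1, and Chrne to -0.021 without wild-type mouse 1, where Chrne minus Chrng was -0.032. Over the fits that left out a mouse, the differences ran from -0.39 to -0.21 for Musk, -0.30 to -0.11 for Chrnb1, -0.055 to 0.095 for Chrna1, -0.021 to 0.090 for Chrne, -0.081 to 0.016 for Rapsn and -0.032 to 0.044 for Chrne minus Chrng. All probe sets called numbered 359, with 572 under the replicate block, and 84 to 503 without a mouse (121 and 84 without heterozygous mouse 2 and 3; 97, 103 and 143 without wild-type mouse 1, 2 and 3). Among the 69 further junction genes the count was 4, with 7 under the replicate block and 1 to 4 without a mouse. It was 1 without heterozygous mouse 2 and without wild-type mouse 1, and 2 without each of heterozygous mouse 3 and wild-type mice 2 and 3. The block changed no call of the 9 genes. The causes were not tested.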
